A study of Mus musculus with 6 samples.

Results

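The proteins of the cytosolic ribosome are described here through the probe sets of 1 mouse array design. A probe set is a group of short oligonucleotides that together report the messenger RNA of a gene. The members are all probe sets annotated to a single symbol that begins with Rpl or Rps and a digit, or is Rplp0, Rplp1, Rplp2 or Rpsa. Symbols of the kinases that begin with Rps6k (3 probe sets) and pseudogenes were left out. The rule found 49 probe sets for 35 genes, out of 12422 probe sets that are not array controls. A further 39 probe sets carry a ribosomal protein symbol together with other symbols, and no gene is named from them.

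The study compared whole splenic B lymphocytes of 3 kinds of adult mice, with 2 arrays each. The CBA mice were wild type. The Xid mice were of the strain CBA/N, in which the tyrosine kinase Btk carries the substitution R28C. The Btk KO mice came from a knockout first kept on SW129 and then crossed back to CBA for 9 generations. The arrays numbered 1 were run first, and those numbered 2 followed with fresh RNA of other mice. Whether each RNA was of a single animal or of pooled animals is not stated, so the p-values measure the spread between these arrays. In RNA of a whole cell preparation, fewer cells of a type and less RNA per cell cannot be told apart.

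The ribosome is built from a small subunit, which reads the messenger RNA, and a large subunit, which joins amino acids. The genes named Rps encode proteins of the small subunit and those named Rpl encode proteins of the large one. Their messenger RNAs are among the most abundant of nearly every cell, and their products are needed in matching numbers. In lymphocytes the demand for ribosomes grows when a resting cell is activated and enlarges. Many of these messenger RNAs begin with a C followed by a run of pyrimidines, the terminal oligopyrimidine tract, through which the TOR pathway controls their translation.

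The annotated start sites of the members show this tract in part. The promoter table of RefSeq, on the mouse build GRCm38.p6, held 28 of the 35 genes. The feature searched for was a C and at least 4 further bases that are each C or T, on the strand of the gene. It began exactly at the annotated start in 5 of the 28 genes (17.9%), against 3.01% of the 27025 genes in the table. Within 5 bases of the start it was found in 11 of the 28 (39.3%), against 21.2% of all. The 4 windows printed here are shown because a match begins at the annotated start of the first 3 genes, Rpl7a carries one that spans its annotated start, and the values of all 4 are described below. Each holds 30 bases before the annotated start and 15 from it on, and capitals mark the match from its C on. Further C or T bases stand directly before the match in lower case. The windows lie at chr17:27635230-27635274 on the minus strand for Rps10, chr17:33955651-33955695 on the minus strand for Rps18, chr3:90213634-90213678 on the minus strand for Rps27, and chr2:26910777-26910821 on the plus strand for Rpl7a. A match of letters is a description of the window and no evidence of how the gene was regulated in these cells.
Rps10: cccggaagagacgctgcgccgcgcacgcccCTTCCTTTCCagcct
Rps18: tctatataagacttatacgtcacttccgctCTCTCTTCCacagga
Rps27: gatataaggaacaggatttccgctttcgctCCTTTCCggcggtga
Rpl7a: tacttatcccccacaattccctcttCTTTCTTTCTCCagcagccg

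The arrays themselves differed in ways that touch these genes. Btk, the gene altered in both lines, had intensities of 874.1 and 749.8 in CBA and of 841.0 and 643.9 in Xid. In Btk KO they were 276.1 and 173.6. The Btk KO mean was 27.7% of the CBA mean (limma adjusted p = 0.0515, or 0.0053 with the array number as a block). The highest intensity on an array was 7640 on Xid array 2 and 7638 on Btk KO array 2, against 10623.2 to 13136.5 on the other 4. On Btk KO array 1 the Gapdh control probes gave a 3' to 5' ratio of 10.4, a sign of RNA quality, against at most 1.61 elsewhere. It was the only array hybridised on its day. Cd79a, a chain of the B cell receptor, read between 3066.3 and 6004.4 on the 6 arrays. Summed intensity of the 11 B cell markers on the array was 25582 to 25951 for CBA, 20164 to 25787 for Xid and 17596 to 18279 for Btk KO. The 14 measured macrophage and monocyte markers summed to 3343 to 4972, 7021 to 10588 and 10802 to 14480 in the same order. For the 7 measured neutrophil markers the sums were 182 to 233, 248 to 271 and 863 to 1576, and for the 8 of NK and cytotoxic cells they were 342 to 481, 527 to 799 and 808 to 1584. The 10 measured markers of red cell precursors summed to 5834.7 to 7918.8 in CBA and 8002.8 to 9284.8 in Xid. In Btk KO they summed to 23128.9 on array 1 and 11076.2 on array 2. T cell markers (5 measured) gave 177 to 364, 277 to 390 and 358 to 594, and plasma cell markers (4 measured) 1743 to 2044, 1093 to 1780 and 1163 to 1315. The part of these features in the results below was not tested, except where values are given.

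Of the 49 probe sets, 32 lay above the floor that was set for testing, a mean intensity of about 19.8 over the 6 arrays. They stand for 26 genes, with 15 probe sets of the large subunit and 17 of the small. The other 17 had means of 2.87 to 17.8 and no single value above 39.2, and no difference was drawn from them. For 9 genes every probe set was that dim, namely Rpl32, Rpl35a, Rpl38, Rpl39, Rpl39l, Rps14, Rps15, Rps20 and Rps27l. A dim probe set does not show that the messenger RNA was scarce, since a probe set can bind its target poorly. Rps4x, for example, had 4 probe sets below the floor and 1 above it. Rps6, the ribosomal protein that S6 kinases phosphorylate, Rpl10, and Rpl36a, whose gene lies beside Btk, appeared only on probe sets with several symbols and have no values here.

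No ribosomal protein probe set changed between the groups at an adjusted p below 0.05. In Xid against CBA, limma called 0 of the 32, with a background of 0.0671% of the 7453 probe sets tested. For Btk KO against CBA it again called 0, with a background of 0.174%, and for Btk KO against Xid it called 0, with a background of 0.0403%. At an unadjusted p below 0.05, the limma fit gave 0, 1 and 0 members (0%, 3.1% and 0%) in these comparisons. Over all probe sets the counts were 330, 658 and 269 (4.43%, 8.83% and 3.61%). With the array number as a block, limma again called no member, while the background rose to 0.483%, 2.23% and 0.188%. In that fit 1, 2 and 0 members (3.1%, 6.25% and 0%) had an unadjusted p below 0.05. The counts over all probe sets were 604, 1122 and 545 (8.10%, 15.1% and 7.31%).

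The differences of the members were small in the middle and wide in their limits. The median log2 difference of the 32 was -0.05 in Xid against CBA, with 8 probe sets higher and 24 lower, while the median of all probe sets was 0.01. The median was -0.07 in Btk KO against CBA, again with 8 higher and 24 lower, while that of all was 0.01. It was -0.02 in Btk KO against Xid, with 14 higher and 18 lower, while that of all was 0.00. After quantile normalization, which gives every array the same distribution, the median of Xid against CBA was 0.03 with 20 higher and 12 lower. That of Btk KO against CBA was then -0.04 with 9 higher and 23 lower. For Btk KO against Xid it was -0.04 with 11 higher and 21 lower. The 95% limits of a member reached 0.70 to either side at the median, from 0.47 to 1.15. With the array number as a block, they reached 0.49 at the median, from 0.36 to 0.91. The blocked limits excluded 0 for 3 probe sets, none of which passed the limma test after adjustment: Rpl10a on 100711_at and Rps13 in Btk KO against CBA, and Rpl22 on 92856_at in Xid against CBA.

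**Figure D1:**
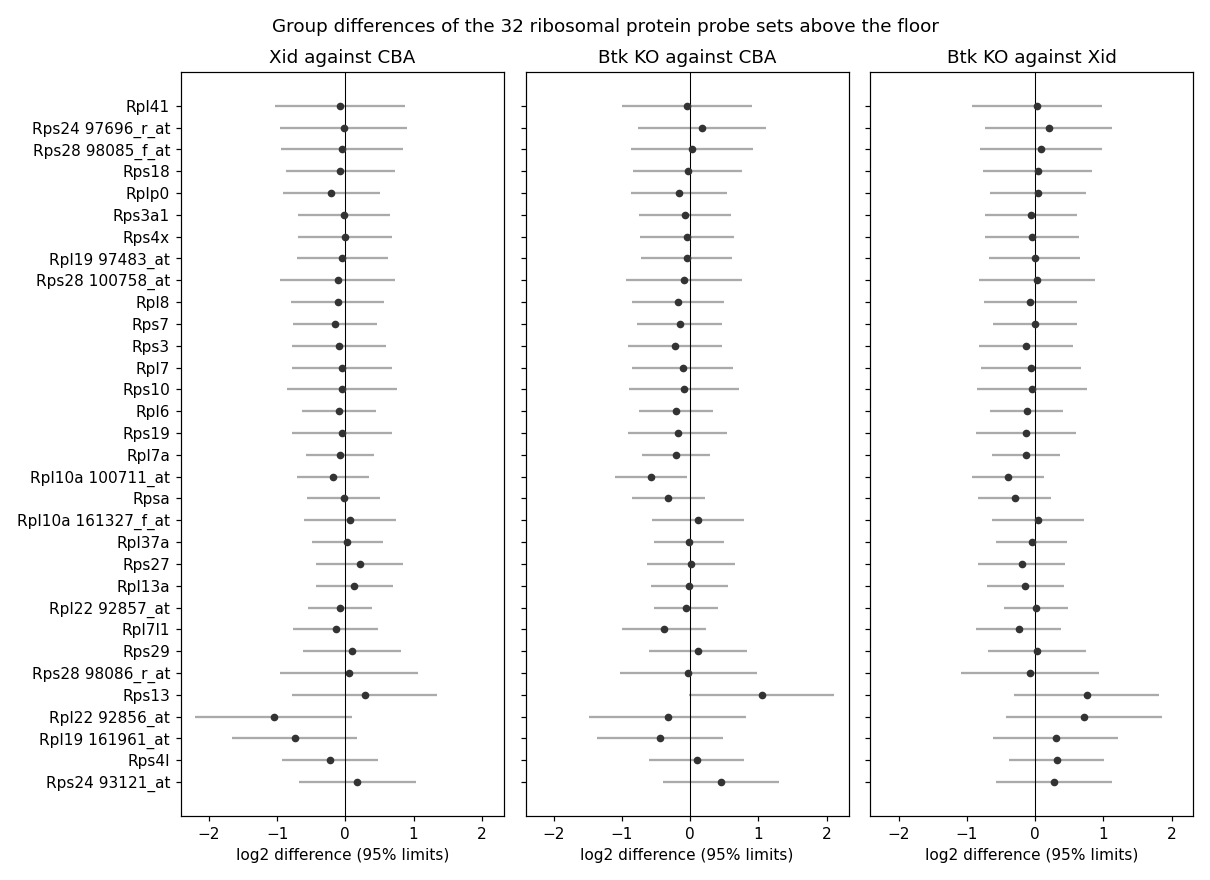
Log2 difference with its 95% limits from limma without the block (x axis) for each of the 32 ribosomal protein probe sets above the floor (y axis, the brightest on top), in the 3 comparisons. The points crowd around 0, with medians of -0.05, -0.07 and -0.02, and the limits include 0 everywhere except for Rpl10a 100711_at in Btk KO against CBA, which did not pass after adjustment.

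The widest shared differences of the bright members lay between the arrays of a mutant group. Among the 32 probe sets, 21 for 19 genes had a mean intensity above 1000, a level chosen after the values were seen. The dimmest of these was Rpl37a, with a mean of 1009, and the brightest below that level was Rps27, with a mean of 434. Of all 279 probe sets above 1000, these 21 made up 7.53%. Their share of the summed intensity of an array was 5.47% and 5.01% on the CBA arrays, 5.99% and 4.30% on the Xid arrays, and 5.85% and 4.35% on the Btk KO arrays. The shares on Xid array 2 and Btk KO array 2 were lower than on the other 4 arrays.

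**Figure D2:**
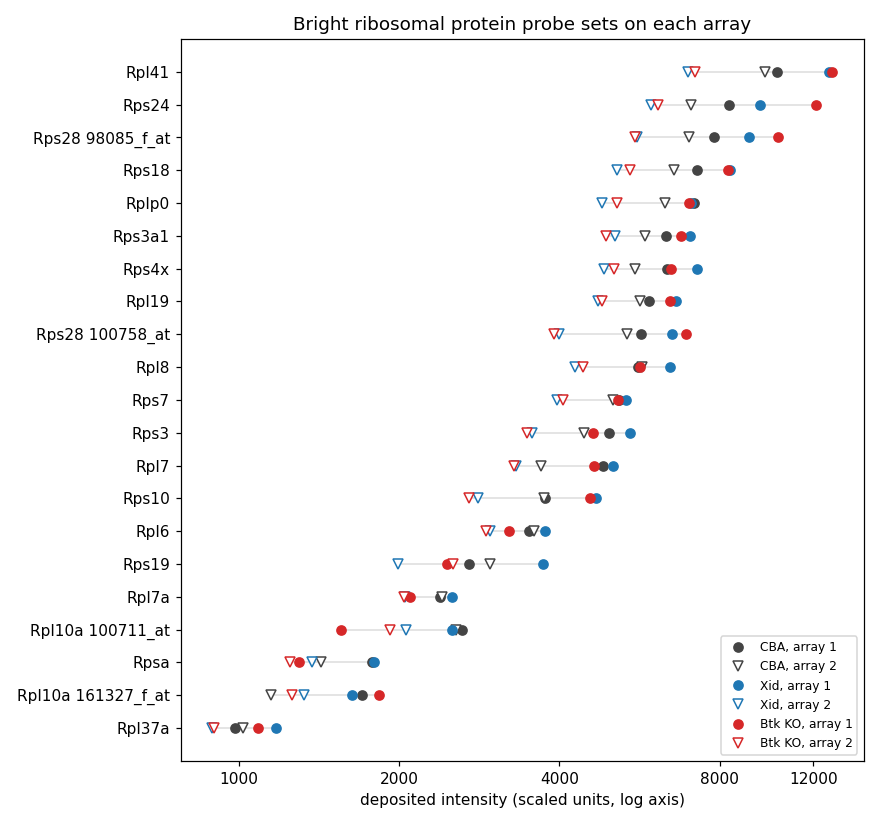
Deposited intensity (x axis, log scale, scaled units) of the 21 ribosomal protein probe sets with a mean above 1000 (y axis) on each of the 6 arrays. Colours mark the group and filled circles and open triangles mark arrays 1 and 2; for 17 of the 21 the lowest pair of values is Xid array 2 with Btk KO array 2.

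Nearly all of the 21 bright probe sets were lower on array 2 than on array 1 in both mutant groups, by more than in CBA. In Xid, array 2 was below array 1 for 21 of 21, with a median log2 difference of -0.58. In Btk KO it was below for 19 of 21, with a median of -0.42. In CBA it was below for 16 of 21, with a median of -0.09. Over all probe sets tested the corresponding medians were 0.01, -0.03 and -0.05. The lowest value of a probe set fell on Xid array 2 for 10 of the 21 and on Btk KO array 2 for 9. The highest fell on Xid array 1 for 14, on Btk KO array 1 for 5 and on CBA array 1 for 2.

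**Figure D3:**
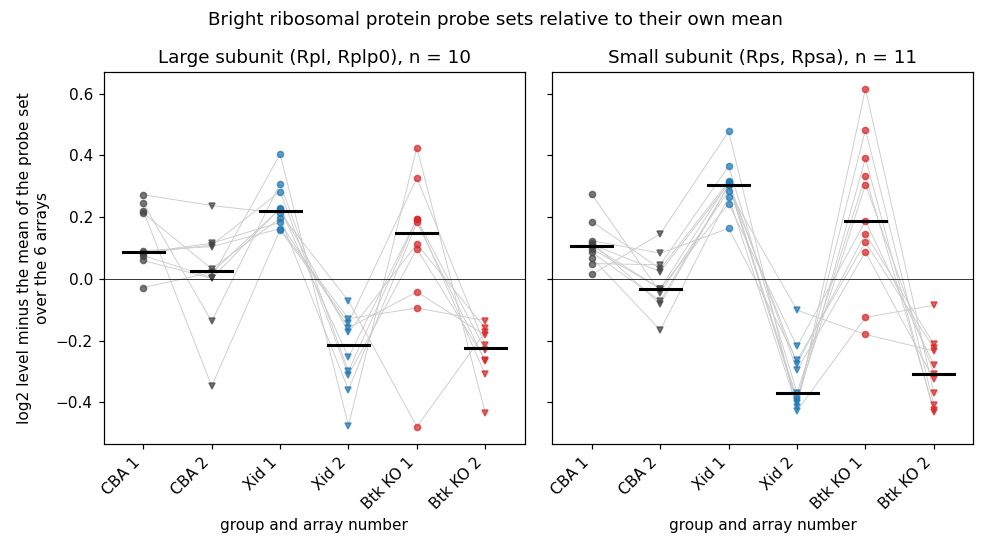
Log2 level of each bright ribosomal protein probe set minus its own mean over the 6 arrays (y axis), by group and array number (x axis), for the 10 probe sets of the large subunit and the 11 of the small. Each point is 1 probe set, grey lines join a probe set across arrays, and black bars are medians; the bars of Xid array 2 stand at -0.21 and -0.37 and those of Xid array 1 at 0.22 and 0.30.

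The sign of the difference from CBA depended on the array number for most of the bright probe sets in Xid and for fewer in Btk KO. In Xid against CBA, the median log2 difference of the 21 was 0.17 between the arrays numbered 1, with 18 higher, and -0.31 between those numbered 2, with 20 lower. For Btk KO it was 0.03 with 12 higher, and -0.27 with 20 lower. Probe sets higher among arrays 1 and lower among arrays 2 numbered 18 of 21 (85.7%) in Xid, against 19.4% of all probe sets, and 11 of 21 (52.4%) in Btk KO, against 18.8% of all. Lower among both array numbers were 2 of 21 (9.52%) in Xid, against 25.4% of all. In Btk KO 9 of 21 (42.9%) were lower among both, against 27.1% of all, and 1 was higher among both. The pooled medians of -0.05 and -0.09 for these 21 average values of opposite or unequal size.

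**Figure D4:**
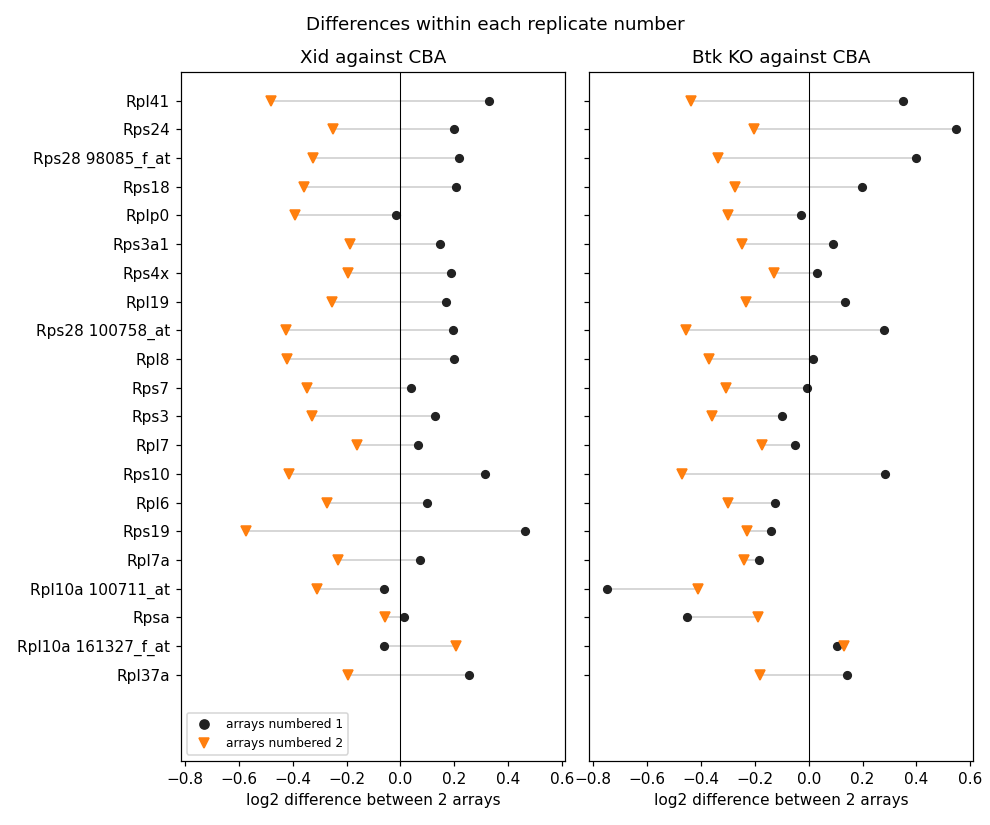
Log2 difference from the CBA array of the same number (x axis) for the 21 bright ribosomal protein probe sets (y axis), with circles for the arrays numbered 1 and triangles for those numbered 2. In Xid, 18 circles lie right of 0 and 20 triangles left of it; in Btk KO these counts are 12 and 20.

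The same pattern stood in the brightest probe sets without a ribosomal protein symbol. Probe sets with no gene symbol and those of pseudogenes were not left out of them. They include Eef1a1 and Tpt1, described below. At the level of 1000 used above, 235 probe sets had no ribosomal protein symbol, and 37.4% of them were higher among arrays 1 and lower among arrays 2 in Xid against CBA, beside 85.7% of the 21. For Btk KO the shares were 29.8% and 52.4%. The intensities of the 235 were mostly lower, with a median of 1674 on CBA array 1, against 5180 for the 21. Probe sets with no ribosomal protein symbol and a mean above 4000, a second level chosen after the values were seen, numbered 29. Of these, 28 were higher among arrays 1 and lower among arrays 2 in Xid against CBA (96.6%). For the 13 ribosomal protein probe sets above 4000 the count was 12 (92.3%). For Btk KO the counts were 16 of the 29 (55.2%) and 9 of the 13 (69.2%). The log2 difference from array 1 to array 2 had a median of -0.48 in Xid and -0.51 in Btk KO for the 29, and of -0.61 and -0.47 for the 13. Over the 235, it was -0.17 and -0.16.

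Quantile normalization shrank the medians of the pattern. It gives every array the same distribution, so a shift shared by the brightest probe sets shrinks by construction. After it, the medians from array 1 to array 2 for the 21 bright probe sets were -0.07 for CBA, -0.10 for Xid and -0.01 for Btk KO. In Xid 17 of the 21 were still lower on array 2 and 2 higher, with a lowest difference of -0.71. In CBA 13 were lower and 6 higher, and in Btk KO 11 and 8. The medians against CBA were 0.00 for arrays 1 and -0.03 for arrays 2 in Xid, and -0.04 for both in Btk KO. Of the 13 ribosomal protein probe sets above 4000, 9 were then lower on Xid array 2 than on array 1 and 2 higher (median -0.05). Of the 29 others above 4000, 10 were lower and 15 higher (median 0.01), and of the 235, 107 were lower and 121 higher (median 0.02). In Btk KO 6 of the 13 were lower and 5 higher, and 13 of the 29 were lower and 14 higher. The difference between these sets was not tested. As deposited, the 11 ribosomal protein probe sets below 1000 had shown less of the pattern in Xid. Their medians from array 1 to array 2 were -0.09 for CBA, -0.11 for Xid and -0.41 for Btk KO. The 35 probe sets above the floor with several symbols including a ribosomal protein gave -0.09, -0.46 and -0.42.

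Both subunits took part. For the 11 bright probe sets of the small subunit the log2 difference from array 1 to array 2 had a median of -0.14 for CBA, -0.68 for Xid and -0.47 for Btk KO. For the 10 of the large subunit it was -0.05, -0.44 and -0.39. All 11 of the small subunit were higher in Xid than in CBA among arrays 1, and all 11 were lower among arrays 2. For the large subunit these counts were 7 and 9 of 10. In Btk KO against CBA they were 7 and 11 of 11 for the small subunit, and 5 and 9 of 10 for the large. Lower among both array numbers in Btk KO were 4 of the 11 and 5 of the 10. The difference between the subunits was not tested.

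Rpl41 encodes the smallest protein of the large subunit, and its probe set 100213_f_at showed the array difference at full size. The suffix marks probes that are not unique to 1 sequence, so signal from other sequences was not told apart. The intensities were 10228.6 and 9736.4 in CBA, 12845.2 and 6981.9 in Xid, and 13027.5 and 7187.6 in Btk KO. Array 2 thus held 95.2% of array 1 for CBA, 54.4% for Xid and 55.2% for Btk KO. Both mutant groups enclosed the CBA values, and the log2 differences from CBA were -0.08 ± 0.41 (SE) in Xid and -0.04 ± 0.41 in Btk KO.

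Rplp0 encodes the protein that anchors the stalk of the large subunit, where elongation factors bind. It gave 7145.0 and 6304.0 in CBA, 7064.0 and 4805.4 in Xid, and 6996.5 and 5126.3 in Btk KO. The CBA range overlapped both others, and the difference from CBA was -0.20 ± 0.30 in Xid and -0.16 ± 0.30 in Btk KO. The other stalk proteins, Rplp1 and Rplp2, were on no probe set with a single symbol.

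Rpl7a and Rpl6, both of the large subunit, were among the steadiest members. Rpl7a read 2389.2 and 2410.8 in CBA, 2510.3 and 2050.4 in Xid, and 2099.8 and 2041.8 in Btk KO. Rpl6 read 3512.7 and 3587.9, then 3760.3 and 2966.5, then 3216.3 and 2916.4. For both genes the Btk KO arrays lay below both CBA arrays and overlapped Xid, with a log2 difference from CBA of -0.21 ± 0.21 for Rpl7a and -0.21 ± 0.23 for Rpl6. Their limma adjusted p-values were 0.864 and 0.880. Rpl37a was also steady, at 984.8 and 1019.1 in CBA, 1176.4 and 890.3 in Xid, and 1086.7 and 898.6 in Btk KO.

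Rpl10a, a protein of the L1 stalk of the large subunit, had the smallest p of all members. On the probe set 100711_at it read 2621.7 and 2558.6 in CBA, 2515.4 and 2064.7 in Xid, and 1555.4 and 1925.0 in Btk KO. Both Btk KO arrays lay below the other 4. The log2 difference from CBA was -0.58 ± 0.23, with 95% limits of -1.11 and -0.05, and it did not pass the limma test after adjustment (unadjusted p = 0.035, adjusted p = 0.506, or 0.205 with the block). Within array numbers it was -0.75 and -0.41.

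The second probe set of the same gene did not show that order. Rpl10a on 161327_f_at read 1705.1 and 1148.8 in CBA, 1633.3 and 1325.1 in Xid, and 1836.1 and 1259.8 in Btk KO. The 3 groups overlapped, and the log2 difference of Btk KO from CBA was 0.12 ± 0.29. The suffix of that probe set marks probes that are not unique to 1 sequence. Which of the pair follows the gene was not tested.

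Rpsa, the small subunit protein also known as the laminin receptor, likewise had both Btk KO arrays below the other 4. It read 1779.6 and 1426.6 in CBA, 1795.1 and 1371.2 in Xid, and 1298.4 and 1250.7 in Btk KO. The difference from CBA was -0.32 ± 0.23, with 95% limits of -0.86 and 0.21 (limma adjusted p = 0.775, or 0.422 with the block). It was -0.45 among arrays 1, again with that Btk KO array, and -0.19 among arrays 2. Without CBA array 1 it was -0.16.

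Rpl7l1, a relative of Rpl7 with a role in ribosome assembly, was the last of the 3 members with that order. It read 51.3 and 62.7 in CBA, 46.5 and 55.4 in Xid, and 38.9 and 45.5 in Btk KO. The difference of Btk KO from CBA was -0.38 ± 0.27 (limma adjusted p = 0.770, or 0.514 with the block). Members with both Btk KO arrays below the other 4 numbered 3 of 32, with a background of 6.02%, and members with both above numbered 0, with a background of 8.44%.

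Members whose arrays did not overlap between a pair of groups were about as frequent as among all probe sets or less so. In Xid against CBA, 1 was higher, with a background of 17%, and 4 were lower, with a background of 14.4%. Higher in Btk KO than in CBA were 2, with a background of 20%, and 6 were lower (18.8% of the 32), with a background of 16%. Higher in Btk KO than in Xid was 1, with a background of 14.2%, and 3 were lower, with a background of 12.3%. The 6 lower ones were Rpl10a on 100711_at, Rpl6, Rpl7a, Rpl7l1, Rps19 and Rpsa.

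Among the bright genes of the small subunit, Rps10, a protein of the head near the entry of the messenger RNA, gave 3758.3 and 3748.2 in CBA, 4678.0 and 2810.3 in Xid, and 4574.2 and 2706.5 in Btk KO. CBA array 2 held 99.7% of array 1, and both lay between the arrays of each mutant group. Rps18, also of the head, gave 7240.6 and 6574.1, then 8355.7 and 5132.8, then 8306.6 and 5433.2. These are genes whose start windows are printed above, as is Rps27, which was dimmer at 391.1 and 421.6 in CBA, 549.4 and 402.9 in Xid, and 519.0 and 322.5 in Btk KO. The log2 differences from CBA were -0.05 for Rps10, -0.08 for Rps18 and 0.21 for Rps27 in Xid, and -0.09, -0.04 and 0.01 in Btk KO.

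Rps19, whose human counterpart is mutated in Diamond-Blackfan anaemia, broke the pattern in 1 group. It read 2706.3 and 2964.7 in CBA, 3732.3 and 1992.2 in Xid, and 2457.1 and 2525.3 in Btk KO. Xid array 2 held 53.4% of array 1, while Btk KO array 2 held 103% of its array 1. Both Btk KO arrays lay below both CBA arrays, with a difference of -0.19 ± 0.31 (limma adjusted p = 0.928).

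Rps4x lies on the X chromosome, as Btk does, and encodes a small subunit protein. Its bright probe set read 6365.5 and 5544.8 in CBA, 7242.4 and 4848.2 in Xid, and 6494.8 and 5066.4 in Btk KO. The groups overlapped, and the differences from CBA were 0.00 ± 0.30 in Xid and -0.05 ± 0.30 in Btk KO. Rps4l, a related copy, had 1 probe set above the floor, at 29.7 and 28.7 in CBA, 25.4 and 23.0 in Xid, and 33.6 and 29.6 in Btk KO. The Xid arrays were the lowest there, by -0.22 ± 0.30 against CBA, on a probe set near the floor with a mean of 28.3. The other Rps4l probe set, 98148_at, lay below the floor.

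Rps28 was read by 3 probe sets, of which 98085_f_at has the suffix that marks probes not unique to 1 sequence. On 98085_f_at it gave 7815.3 and 7006.9 in CBA, 9086.3 and 5600.0 in Xid, and 10290.9 and 5551.9 in Btk KO. On 100758_at it gave 5689.2 and 5353.0, then 6519.7 and 3987.4, then 6905.9 and 3904.0. Both had the lowest values on the mutant arrays numbered 2 and the highest on the mutant arrays numbered 1. The third, 98086_r_at, was dim, from 31.0 to 66.1, and its lowest value also fell on Btk KO array 2.

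Rps24, a small subunit protein, was read by a bright probe set whose gene is uncertain. The probe set 97696_r_at gave 8313.5 and 7068.3 in CBA, 9534.5 and 5947.0 in Xid, and 12151.0 and 6140.2 in Btk KO. It was made from the same source record as the Rpl7 probe set 97695_s_at, which gave 4826.9 and 3702.0, then 5045.0 and 3310.0, then 4656.2 and 3285.8. A second Rps24 probe set, 93121_at, lay near the floor at 14.8 to 32.6. Btk KO array 1 was the highest on both Rps24 probe sets and not on that of Rpl7.

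The largest log2 differences of the family came from probe sets near the floor. Rps13, a small subunit protein, had the largest increase, on 93027_r_at. It read 21.4 and 23.8 in CBA, 34.0 and 24.3 in Xid, and 86.9 and 31.4 in Btk KO. The value of Btk KO array 1, the array with the high 3' to 5' ratio, stood apart. The difference from CBA was 1.04 ± 0.45, with 95% limits of -0.02 and 2.11, or 0.15 and 1.94 with the block (limma adjusted p = 0.571, or 0.259 with the block). It was 1.76 among arrays 1 and 0.33 among arrays 2. Without Btk KO array 1 it was 0.39. The suffix marks a probe set built under relaxed rules.

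Rpl22, a large subunit protein with a known role in lymphocyte development, had the largest decrease, on 92856_at. It read 50.9 and 44.2 in CBA, 10.5 and 34.4 in Xid, and 25.7 and 50.8 in Btk KO. The difference of Xid from CBA was -1.05 ± 0.49, with 95% limits of -2.20 and 0.10, or -1.96 and -0.14 with the block (limma adjusted p = 0.999, or 0.515 with the block). It was -1.79 among arrays 1 and -0.31 among arrays 2. Without Xid array 1 it was -0.40. Its second probe set, 92857_at, was brighter and the steadiest member of all, at 142.0 and 132.7, then 123.7 and 137.0, then 124.3 and 138.4. There the difference was -0.07 ± 0.20, so the pair did not agree in size.

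Rpl19 on 161961_at read 32 and 51.2 in CBA, 30.2 and 15.5 in Xid, and 32.8 and 24.4 in Btk KO, with a difference of -0.74 ± 0.39 in Xid. That difference was -0.07 among arrays 1 and -1.41 among arrays 2. Without Xid array 2 it was -0.37, without Xid array 1 it was -1.12, and without CBA array 2 it was -0.45. Its bright probe set 97483_at read 5889.1 and 5657.7, then 6621.0 and 4737.4, then 6467.7 and 4817.8, with a difference of -0.04 ± 0.29. Rps29 read 56.2 and 35.9, then 48.3 and 48.4, then 57.8 and 42.1, and its groups overlapped. Rpl13a, at 415.1 and 313.1, then 433.6 and 359.8, then 413.3 and 306.9, was lower on array 2 in all 3 groups.

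Other genes of translation gave no call either. Limma called 0 of 35 genes on the list of initiation factors and 0 of 13 on that of elongation and release factors. It also called 0 of 49 ribosome assembly genes, 0 of 58 mitochondrial ribosomal proteins and 0 of 11 S6 kinase and TOR pathway genes. This held in Xid and in Btk KO against CBA, beside backgrounds of 0.0671% and 0.174%, and with the block, beside 0.483% and 2.23%. At an unadjusted p below 0.05, the limma counts without the block were 0 for each list in Xid, beside 4.43% of all probe sets, and 3, 0, 1, 0 and 0 in Btk KO, beside 8.83%. With the block they were 1, 2, 0, 0 and 0 in Xid, beside 8.10%, and 5, 2, 4, 6 and 0 in Btk KO, beside 15.1%. The median log2 differences were -0.10, -0.11, -0.07, -0.08 and 0.02 in Xid, and -0.10, -0.15, -0.13, -0.13 and 0.05 in Btk KO. The only ribosomal protein measured under another name was Fau, at 12.6 to 39.2.

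A pair of bright genes on the list of elongation and release factors showed the array pattern of the ribosomal proteins. That list was drawn to take in Tpt1, Naca and Btf3 as well. Eef1a1, which carries aminoacyl-tRNA to the ribosome and also has a messenger RNA with a terminal oligopyrimidine tract, read 9103.5 and 8110.3 in CBA, 10557.4 and 6309.7 in Xid, and 11226.2 and 6643.6 in Btk KO. The summed intensity of the 13 was 21990 to 24661 for CBA, 18039 to 26720 for Xid and 18461 to 27172 for Btk KO. Tpt1, whose messenger RNA also has such a tract, read 8626.5 and 7211.5, then 9715.9 and 6116.3, then 10591.7 and 6266.8, and Eef1a1 and Tpt1 make up most of that sum. The median difference of the 13 from CBA was 0.06 among arrays 1 and -0.24 among arrays 2 in Xid, and -0.05 and -0.19 in Btk KO. Not every member had these array values: Gspt1, a release factor, went from 92.2 to 273.6 between the Xid arrays and from 83.0 to 231.9 between the Btk KO arrays. Eef1a1, Tpt1 and Gspt1 were named after their values were seen.

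Single genes of these lists stood lower in Btk KO without passing the limma test. Ddx18, a helicase of ribosome assembly, read 165.6 and 144.8 in CBA, 133.2 and 116.2 in Xid, and 79.9 and 102.6 in Btk KO (-0.74 ± 0.22 against CBA, adjusted p = 0.360). Eif2b2, a subunit of the exchange factor for eIF2, read 124.8 and 146.3, then 97.2 and 115.8, then 89.8 and 76.2 (-0.67 ± 0.23, limma adjusted p = 0.405). Npm1, the nucleolar phosphoprotein nucleophosmin, read 1005.5 and 997.4, then 941.0 and 857.5, then 820.8 and 722.2, and was lowest in Btk KO on both array numbers (-0.38 ± 0.19, limma adjusted p = 0.642). In the other direction Eif4ebp1, a repressor of cap-dependent initiation that TOR inactivates, read 34.1 and 30.5 in CBA, 40 and 44.1 in Xid, and 57.5 and 49.4 in Btk KO (0.63 ± 0.27, limma adjusted p = 0.557).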

How the data were processed

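Messenger RNA of 6 samples was read on Affymetrix MG_U74Av2 arrays. The authors deposited 1 linear intensity per probe set and array, already scaled to a common 2% trimmed mean of about 100.1. No source used here names the software that summarised the probes, and no detection calls were used. Symbols came from the platform annotation (10833 probe sets with 1 symbol, 396 with several and 1193 with none), and 10817 were updated or found by gene number in a table of GRCm38.p6.

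Intensities were taken to log2 after adding 6. Probe sets with a mean log2 value below the 40th percentile were left out, which kept 7453. Group means of all 6 arrays were compared in 1 model with limma 3.58.1 (lmFit, eBayes with intensity trend, R 4.3.3) with 3 residual degrees of freedom. The tests were two-sided, with Benjamini-Hochberg adjustment over the 7453 at 0.05. The script was tested on simulated data. Figures were drawn with matplotlib 3.10.9. Errors after ± are standard errors of the log2 difference.

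The members and lists were chosen with earlier results of these data known. Members named are those of the X chromosome, the stalk and Rpsa, variant copies and dim members. Also named are the 5 smallest p in each direction and comparison, and the 4 largest and 4 smallest spreads. Btk could be named too, and of each other list up to 4 measured genes with the smallest p in either comparison with CBA. Members named beyond the rule are Rpl41, Rps10, Rps18, Rps19 and the bright probe sets of Rps28, Rpl19 and Rpl7, chosen after their values were seen.

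The array numbers pair the arrays, since the design text describes a second set of 3 chips and, per the file headers, each set came from 1 chip lot. Deviations from the group means correlated at 0.31, 0.37 and 0.44 between arrays of the same number. Alternatives were this block, quantile normalization, median centring, pseudocounts of 1 and 32, no filter and a stricter one at the 60th percentile, no trend, only the groups compared, and each array left out.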

Additional observations from a re-analysis of the deposited data

How the results depend on the processing

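No ribosomal protein probe set was called under any of the 20 alternatives tried for each of the 3 comparisons. Of 936 alternative values for 20 named member probe sets, 855 kept their direction and 81 changed sign, none with a call. The number of all probe sets called varied. In Xid against CBA it was 5, and 9 with only the groups compared, 3 and 8 with pseudocounts of 1 and 32, 36 with the replicate block, 30 with block and quantile normalization, and 0 to 9 with 1 array left out. For Btk KO against CBA the number was 13, with 8 with median centring, with quantile normalization and without a filter, 0 without the trend and with only the groups compared, 24 with a pseudocount of 32, 29 with a stricter filter, 166 with the replicate block, 133 with block and quantile normalization, and 0 to 145 with 1 array left out. For Btk KO against Xid the number was 3, with 0 with only the groups compared, 8 with a pseudocount of 32, 14 with the replicate block, 11 with block and quantile normalization, and 0 to 29 with 1 array left out. The block with quantile normalization, the bright members alone and the probe sets with several symbols were alternatives chosen after seeing the data. Taking only bright members, plain probe sets or the brightest probe set per gene selects members from the main fit. That fit called no member, so these alternatives could give no call. The median log2 difference of the members in Xid against CBA ran from -0.31 (without Xid array 1) to 0.21 (without Xid array 2) when 1 array was left out. For Btk KO against CBA it ran from -0.32 (without Btk KO array 1) to 0.15 (without Btk KO array 2). For Btk KO against Xid it ran from -0.28 (without Xid array 2) to 0.22 (without Xid array 1), and was -0.059 with median centring, -0.049 with a stricter filter, the brightest probe set per gene or plain probe sets only, and -0.047 with bright members only or the several-symbol probe sets added. Median centring moved the median of all probe sets by -0.11 in Btk KO against CBA, and put 5 members higher and 27 lower. The causes were not tested. With 2 arrays a group the precision rests on 6 arrays in all, and intensities on Xid array 2 and Btk KO array 2 reach no higher than 7640.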
